A study of Arabidopsis thaliana with 3 samples.

Results

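The transcriptome of T34 seedlings, the population of gip1 gip2 mutants with the more severe root growth defect, was compared with that of WT seedlings of the same age across all genes. The members are the 6 sequenced libraries of these groups, 3 of T34 and 3 of WT, out of 9 libraries in the series, and 30271 genes, of which 20871 passed the filter on low values and were tested. All material was whole Arabidopsis thaliana seedlings aged 9 days. WT stands for Ws x Col-0, a cross of a pair of natural accessions. T34 came out of crossing the T-DNA insertion lines gip1 (GABI_213D01) with gip2 (FLAG_36406), and so did T12, the other mutant population, whose root growth was affected less. GABI lines were made in Col-0 and FLAG lines in Ws, and the labels do not say which accession's alleles a library carries at a given locus, so mutation and accession cannot be told apart near such loci. The series describes 3 individual replicates per group and says nothing of separate cultures or pools, so the spread behind each p-value is that between libraries and may be technical. The hour of collection is not given in the sources used here.

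GIP1 and GIP2 are small subunits of the gamma-tubulin complexes, from which plant microtubules are nucleated at the nuclear surface, on other microtubules and in the division arrays. They are also known for a place at the nuclear envelope and a part in centromere organisation. Work on gip1 gip2 seedlings has centred on division, nuclear shape and growth, so genes of those systems are described here beside the clock, the chloroplast, hormones and the organs of the seedling. GIP1 is not analysed here. GIP2 (AT1G73790) had 4, 1 and 0 reads in WT replicates 1 to 3 and 2, 3 and 5 reads in T34 replicates 1 to 3, too few for a test or for a check of the labels.

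Values are normalized counts, that is, the read count of a gene in a library divided by that library's size factor. The libraries held 25028401 to 30438933 reads, but unequal parts of them came from ribosomal RNA. That part was 45.0% to 49.5% in T34 and 22.5%, 95.7% and 49.1% in WT replicates 1 to 3. WT replicate 2 kept 631483 reads of other nuclear genes, against 12106921 and 6175531 in WT replicates 1 and 3 and 9845347 to 11079076 in T34. In WT replicate 2, 1 read equals 11.7 normalized counts, so a low gene there is either at 0 or at a multiple of that value. Of 230 genes with a mean of at least 100 normalized counts, groups that do not overlap and a rise of at least 4 on the log2 scale, this library was the highest of the WT libraries for 175, at a median of 3.03% of the distance to T34. All 230 were called higher without it as well. They were picked as already called and not overlapping with it, so that outcome was largely set by the choice of genes.

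Marker genes of several organs were present in both groups. Summed over the root-expressed list, WT libraries held 24214 to 40436 and T34 libraries 43511 to 53322 normalized counts, most of it from PYK10. The shoot and leaf list summed to 3742 to 5318 in WT and 3102 to 3378 in T34, and the vascular list to 6089 to 6896 and 7377 to 8380.3. Seed and embryo genes summed to 528 to 8286 in WT and 14480.1 to 40246 in T34. The pollen gene LAT52 and the floral gene AP3 were at or close to 0 in every library.

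Nearly every system looked at held genes that differed between T34 and WT. With limma-trend on log2(normalized count + 1) and a Benjamini-Hochberg adjusted p under 0.05, 5262 of 20871 genes were higher in T34 (25.2%) and 4166 were lower (20.0%). Every T34 library lay above every WT library for 6440 genes (30.9%) and below for 5242 genes (25.1%). Counts of list members are read against these shares. A gene that is near 0 in WT passed the filter, 10 normalized counts in at least 3 of the 9 libraries, through the mutants alone. The rises were the larger changes, with 1711 genes higher and 509 lower by at least 2 on the log2 scale, and 394 and 77 by at least 4. The median log2 fold change of all genes was 0.062. With upper quartile scaling 4559 genes were higher and 5240 lower, and with scaling to the nuclear total 4453 and 5318, because these scalings shift the median of all genes by -0.118 and -0.130, so the direction with the larger count turns with the scaling.

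**Figure D1:**
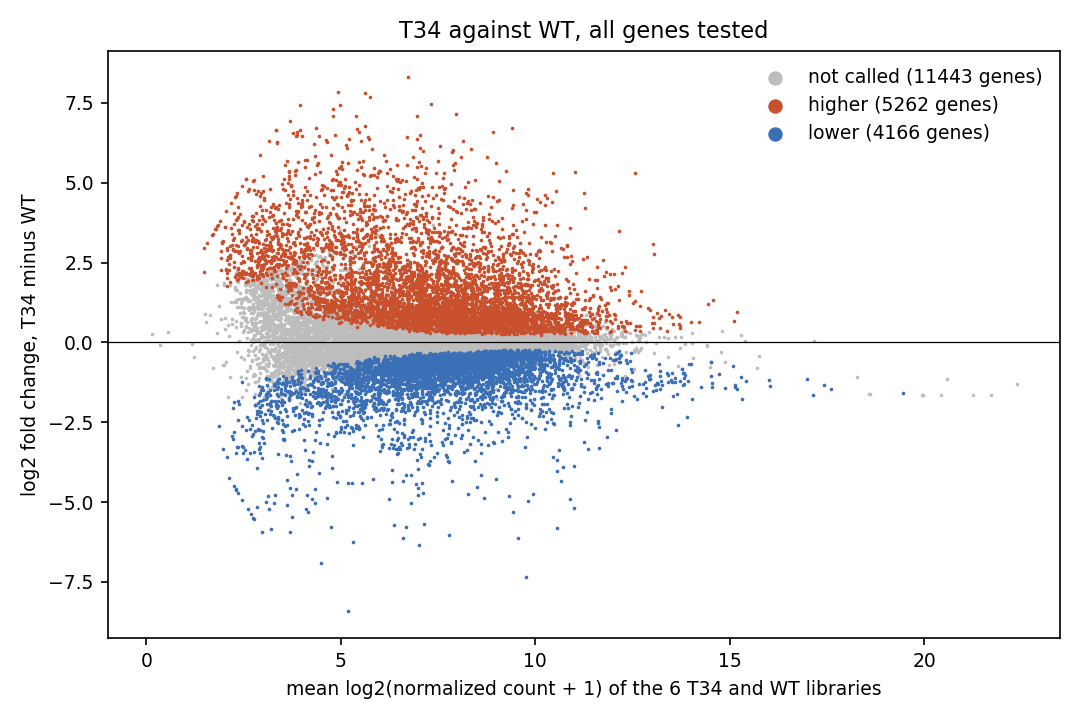
Each point is 1 of the 20871 genes tested, with the mean log2(normalized count + 1) of the 6 libraries on the x axis and the log2 fold change of T34 minus WT on the y axis, coloured by the limma-trend call. The 5262 genes called higher reach changes above 8 and the 4166 called lower reach -8.41.

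The circadian clock of plants is a loop of transcription factors that repress one another in turn through the day. CCA1 and LHY are made around dawn and repress genes of the evening such as TOC1, PRR5 and the evening complex (LUX, ELF3 and ELF4), through a DNA motif called the evening element. Both arms of the loop differed between T34 and WT, in opposite directions. Of 11 morning-phased genes tested 8 were higher and 0 lower in T34 (median log2 fold change 3.06), and of 15 afternoon and evening-phased genes 0 were higher and 11 lower (median -2.10).

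The evening element AAAATATCT, searched on both strands, was found in the 250 bases before the annotated start of 5 of these 11 lowered evening genes, and in 494 of the 20029 windows of all tested genes that could be read (2.47%). Its core AATATCT, which is contained in it, was in 8 of the 11 windows and in 10.04% of all. Of these, 4 windows are shown because they carry the motif named above in genes that fell. Sequences were read from assembly TAIR10.1 and run 5′ to 3′ in the direction of the gene, with the motif in capitals on whichever strand it lies. They are at chr5:8358547-8358796, minus strand for PRR5, chr5:24674713-24674962, plus strand for TOC1, chr3:17182792-17183041, plus strand for LUX and chr1:25508389-25508638, plus strand for FKF1. A match is a description of these letters and not evidence of binding.
PRR5: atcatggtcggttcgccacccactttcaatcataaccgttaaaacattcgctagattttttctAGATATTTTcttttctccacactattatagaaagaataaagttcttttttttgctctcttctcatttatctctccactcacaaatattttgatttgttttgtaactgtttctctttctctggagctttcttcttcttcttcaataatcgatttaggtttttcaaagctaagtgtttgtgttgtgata
TOC1: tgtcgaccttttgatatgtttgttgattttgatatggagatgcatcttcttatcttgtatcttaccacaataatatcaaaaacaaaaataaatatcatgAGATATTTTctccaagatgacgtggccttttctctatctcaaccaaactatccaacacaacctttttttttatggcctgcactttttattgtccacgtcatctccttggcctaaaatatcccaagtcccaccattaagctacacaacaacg
LUX: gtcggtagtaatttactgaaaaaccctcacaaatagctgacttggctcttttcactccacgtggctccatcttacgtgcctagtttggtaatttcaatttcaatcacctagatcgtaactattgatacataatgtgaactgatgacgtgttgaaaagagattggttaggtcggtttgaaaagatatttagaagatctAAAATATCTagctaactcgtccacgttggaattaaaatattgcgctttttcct
FKF1: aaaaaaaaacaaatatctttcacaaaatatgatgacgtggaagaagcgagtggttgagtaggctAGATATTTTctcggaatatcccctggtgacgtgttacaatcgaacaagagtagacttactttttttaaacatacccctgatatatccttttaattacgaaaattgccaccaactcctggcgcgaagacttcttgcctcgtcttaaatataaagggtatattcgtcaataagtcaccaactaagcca

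In the morning genes that rose, the G-box CACGTG, a palindrome bound by bZIP and bHLH factors, was in 5 of 8 windows, against 7.69% of all windows. The windows of the central pair are at chr2:19245341-19245590, plus strand for CCA1 and chr1:37872-38121, minus strand for LHY, with the G-box in capitals.
CCA1: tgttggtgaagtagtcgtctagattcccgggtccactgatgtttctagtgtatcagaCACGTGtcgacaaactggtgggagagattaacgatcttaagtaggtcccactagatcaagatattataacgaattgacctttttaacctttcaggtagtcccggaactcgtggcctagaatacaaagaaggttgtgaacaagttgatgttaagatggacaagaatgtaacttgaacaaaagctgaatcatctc
LHY: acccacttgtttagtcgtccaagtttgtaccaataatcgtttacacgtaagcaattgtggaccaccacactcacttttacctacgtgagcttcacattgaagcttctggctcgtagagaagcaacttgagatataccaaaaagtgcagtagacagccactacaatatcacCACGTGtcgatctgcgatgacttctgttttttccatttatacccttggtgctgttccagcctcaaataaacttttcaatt

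LHY had 36.9, 152 and 33.1 normalized counts in WT replicates 1 to 3 and 3152, 3262 and 3272 in T34 replicates 1 to 3. CCA1 had 31.9, 93.5 and 51.0 in WT and 1704, 1926 and 1688 in T34, and RVE8, an activator of evening genes that is itself made in the morning, had 14.1, 23.4 and 16.6 in WT and 804, 859.9 and 852 in T34. All T34 libraries of these genes lay far above all WT libraries and close to each other. Their log2 fold changes were 5.79 ± 0.47, 5.02 ± 0.31 and 5.49 ± 0.17 (SE, n = 3 per group, limma adjusted p = 1.89e-05, 4.52e-06 and 5.89e-07). The coactivator genes LNK1 and LNK2 were higher (log2 fold changes 3.06 and 3.52) and the repressor gene PRR9 (log2 fold change 3.71). RVE4, a relative of RVE8, had 575, 339 and 688 in WT and 669, 919.6 and 866 in T34, with overlapping groups, and did not pass (adjusted p = 0.0503).

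On the evening side, the light receptor gene FKF1, whose protein marks repressors of flowering for breakdown, had 493, 643 and 663 normalized counts in WT replicates 1 to 3 and 11.1, 9.71 and 10.05 in T34 replicates 1 to 3. The cold- and clock-regulated gene COR27 had 710.0, 736 and 842 in WT and 14.2, 17.2 and 8.37 in T34, and PRR5 had 543, 573 and 622 in WT and 44.3, 38.1 and 36.8 in T34. T34 was below WT in every library of these genes, with WT means 58.3, 57.5 and 14.6 times those of T34. Members of the evening complex fell as well, LUX (log2 fold change -2.73), ELF4 (log2 fold change -4.56) and ELF3 (log2 fold change -1.71). TOC1 had 2132, 2513 and 2317 in WT and 541, 559 and 518 in T34 (log2 fold change -2.10 ± 0.10, adjusted p = 1.57e-06), and GI, a large scaffold protein of the afternoon, had 2634, 2221 and 2957 in WT and 1097, 1126 and 1027 in T34. Log2 fold changes of the 11 lowered genes ran from -5.79 for COR27 to -0.93 for PRR7. ZTL, the F-box protein that removes TOC1 protein, is known for steady transcript levels, and its log2 fold change was -0.21 (95% interval -0.48 to 0.05) without passing the test. Intervals here and below come from limma for 1 gene at a time and are not adjusted for the number of genes.

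**Figure D2:**
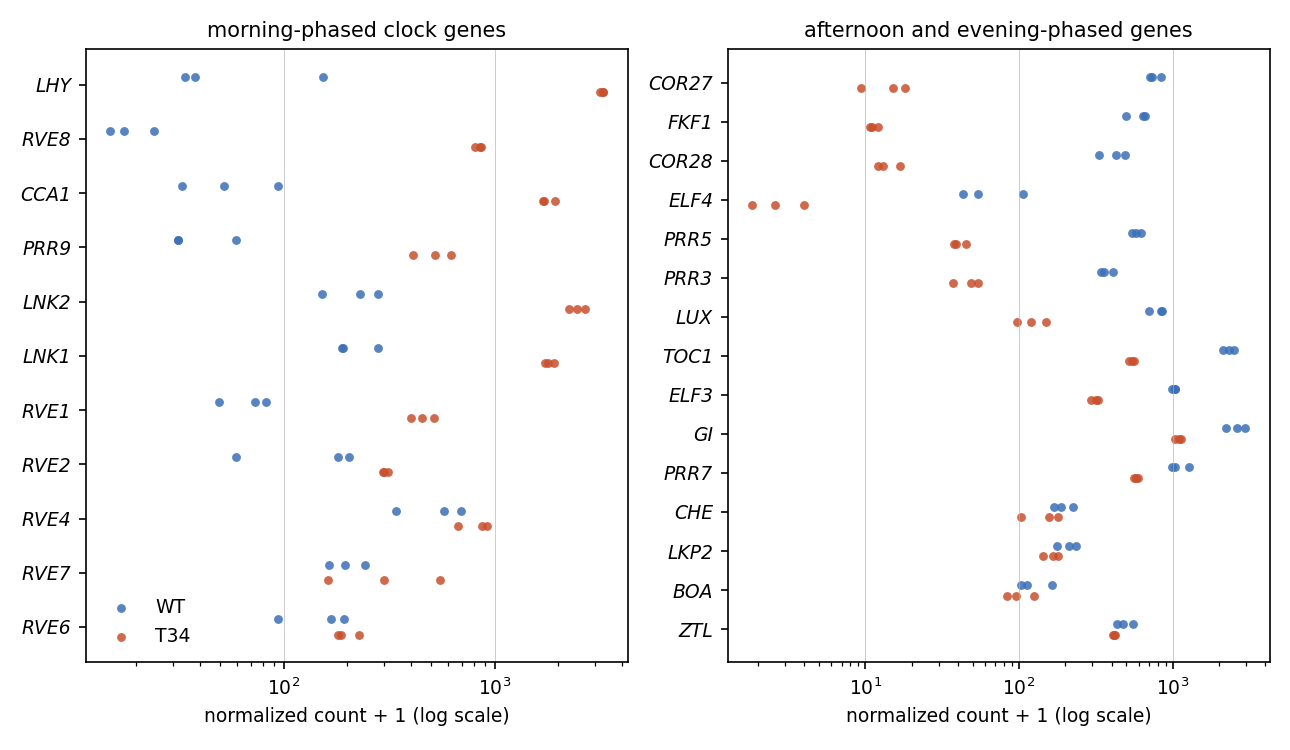
Normalized count + 1 on a log axis for each library of WT and T34 (3 points per group and gene), for 11 morning-phased and 15 afternoon and evening-phased clock genes, ordered by fold change. LHY, CCA1 and RVE8 lie higher in all 3 T34 libraries, and COR27, FKF1 and PRR5 lie lower in all 3.

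Genes that plants switch on when sugar runs short were low in T34. Of 18 dormancy and sugar starvation genes tested, 0 were higher and 15 lower (median -2.37). The sugar-repression element TTATCC was found on either strand in the 250-base windows of 7 of the 15 lowered genes, against 13.0% of all windows. Windows of the most strongly lowered gene, DRM2, and of BT2 are shown with it in capitals, at chr2:14310609-14310858, minus strand and chr3:17910739-17910988, minus strand.
DRM2: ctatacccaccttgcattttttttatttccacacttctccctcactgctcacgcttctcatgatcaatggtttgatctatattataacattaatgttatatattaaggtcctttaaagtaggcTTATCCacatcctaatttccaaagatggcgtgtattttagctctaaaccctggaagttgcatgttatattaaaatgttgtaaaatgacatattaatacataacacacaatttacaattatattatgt
BT2: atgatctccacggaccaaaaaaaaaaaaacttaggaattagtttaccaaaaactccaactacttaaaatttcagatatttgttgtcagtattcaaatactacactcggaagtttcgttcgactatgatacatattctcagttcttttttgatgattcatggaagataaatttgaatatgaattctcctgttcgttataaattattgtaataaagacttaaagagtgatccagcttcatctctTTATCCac

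DRM2 (AT2G33830), a dormancy-associated gene expressed in resting buds, had 10265, 11758 and 11379 normalized counts in WT replicates 1 to 3 and 68.0, 83.7 and 52.8 in T34 replicates 1 to 3. DIN1, which is induced in darkened leaves, had 8715, 12529 and 13311 in WT and 232, 191 and 188 in T34, and BT2, a nutrient- and light-responsive scaffold protein gene, had 3758, 4289 and 4892 in WT and 118, 118 and 89.6 in T34. T34 lay far below WT in each library of these 3 genes, with log2 fold changes of -7.35 ± 0.27, -5.80 ± 0.20 and -5.30 ± 0.15 (adjusted p = 7.21e-07, 5.89e-07 and 3.87e-07). ASN1, the dark-induced asparagine synthetase, fell (log2 fold change -3.33), and genes of branched-chain amino acid breakdown, BCAT2 and MCCA, with log2 fold changes of -3.06 and -2.95. The bZIP factors BZIP1 and BZIP63, which act below the energy sensor kinase SnRK1, had log2 fold changes of -2.01 and -2.44. Genes of the class II trehalose phosphate synthases TPS8, TPS9 and TPS10 fell (log2 fold changes -1.45, -1.37 and -1.47). EXL2 and EXO, of the growth-related exordium family, did not pass, at log2 fold changes of 0.32 and 0.76.

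Other genes with the largest falls included several with products in the chloroplast or of unknown function. AT3G28320, of unknown function, had 722, 619 and 686 normalized counts in WT replicates 1 to 3 and 0.791, 0 and 3.35 in T34 replicates 1 to 3, a log2 fold change of -8.41 ± 0.54. RbcX1, a chaperone for assembly of the carbon-fixing enzyme Rubisco, had 359, 222 and 524 in WT and 4.74, 2.24 and 4.19 in T34, and FBA5, an aldolase, had 868, 1192 and 1539.6 in WT and 6.33, 17.2 and 20.9 in T34. The T34 libraries of all 3 held no more than 20.9 and none reached a WT value. The thioredoxin gene WCRKC1 fell (log2 fold change -6.13), MEE14 (CCG-binding protein) (log2 fold change -6.11) and the CCT motif gene AT1G07050 (log2 fold change -5.79). Among the falls with the largest test statistic were CCL, at a log2 fold change of -4.90, the abscisic acid-response factor ABF1, at a log2 fold change of -3.52, and the peroxisomal small heat shock-type gene ACD32.1, at a log2 fold change of -3.22.

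Genes of the photosynthetic apparatus were mostly lower in T34, to an extent that differed from one complex to the next. Of 18 nuclear genes of photosystem I and its antenna, 0 were higher and 15 lower (median -1.32), and of 25 of photosystem II, 3 were higher and 13 lower (median -0.68). The Calvin cycle list had 2 higher and 10 lower of 22 (median -0.50), chlorophyll synthesis 4 higher and 16 lower of 22 (median -0.66), and photorespiration 3 higher and 6 lower of 14 (median -0.50). The Calvin cycle count was less firm, since GAPA1, RBCS2B, RBCS3B, RPE and CP12-1 were not called without T34 replicate 1, which left 5 lower, and without T34 replicate 2 there were 6. In photosystem II 5 were higher without WT replicate 3. In RNA from whole seedlings, fewer cells of a type and less RNA per cell cannot be told apart.

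In photosystem I, PSAD2, a stromal subunit that docks ferredoxin, had 2325, 4499.6 and 3812 normalized counts in WT replicates 1 to 3 and 939, 1007 and 1171 in T34 replicates 1 to 3. PSAF, which docks plastocyanin on the lumen side, had 6825, 7854 and 9760.2 in WT and 2745, 2930.0 and 3192 in T34. T34 was the lower group in every library, with log2 fold changes of -1.72 ± 0.21 and -1.45 ± 0.14 (adjusted p = 0.000211 and 5.04e-05). LHCA5, a minor antenna protein, did not pass, with 214, 81.8 and 301 in WT and 180.3, 205 and 216 in T34.

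Within the photosystem II antenna the genes did not move together. LHCB1.4 had 7623, 9058 and 14500.1 normalized counts in WT replicates 1 to 3 and 1018, 993 and 1022 in T34 replicates 1 to 3, a log2 fold change of -3.31 ± 0.23. LHCB2.3, which encodes another trimeric antenna protein, had 309.5, 409 and 547 in WT and 1182, 1265 and 1678 in T34, and LHCB4.3, of the minor antenna, had 33.8, 23.4 and 26.8 in WT and 60.1, 81.4 and 77.0 in T34. The first was lower in all T34 libraries and the others were higher in all, with log2 fold changes of 1.72 ± 0.24 and 1.35 ± 0.27 (adjusted p = 0.00037 and 0.00309), and LHCB2.2 was higher (log2 fold change 0.87). LHCB1.1, LHCB1.2 and LHCB1.3 are near-identical copies, and so are members of other families named below (the RBCS, tubulin, histone and cold-regulated genes), so the split of reads among them is uncertain. The same holds for overlapping and antisense genes, since the strand setting of the counting is not given in the sources used here. The oxygen-evolving subunits PSBO1, PSBP1 and PSBQ2 fell (log2 fold changes -1.23, -1.15 and -1.37), while PSBO2 had an overlapping 1525, 2595 and 2563 in WT and 1748, 2017 and 1961 in T34 and did not pass. PSBS, the sensor of excess light, did not pass either, at a log2 fold change of 0.37 (95% interval -0.03 to 0.76).

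In chlorophyll synthesis the 4 genes that were higher belong to different steps. HEMA1 and HEMA2, which commit glutamate to tetrapyrroles, were higher (log2 fold changes 0.92 and 1.75), as were CHLH, a subunit of the magnesium chelatase, with a log2 fold change of 0.80, and CAO, which makes chlorophyll b, with a log2 fold change of 0.66. The protochlorophyllide reductase genes PORA and PORB were the most lowered. PORB had 6925, 7889 and 9201 normalized counts in WT replicates 1 to 3 and 1103, 1215 and 1517 in T34 replicates 1 to 3 (log2 fold change -2.65 ± 0.15, adjusted p = 3.53e-06) and PORA had 211, 386 and 242 in WT and 45.9, 48.6 and 7.54 in T34, while PORC, the third reductase, had 415, 608 and 521 in WT and 488, 536 and 651 in T34 and did not pass. The other chelatase subunits CHLI1, CHLI2 and CHLD fell (log2 fold changes -0.69, -1.26 and -1.08), opposite to CHLH.

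In the Calvin cycle, the small subunit gene RBCS1A of Rubisco had 27234, 53072 and 40890.1 normalized counts in WT replicates 1 to 3 and 13183, 15459.9 and 15514 in T34 replicates 1 to 3 (log2 fold change -1.41 ± 0.23, adjusted p = 0.00115). PRK, which regenerates the acceptor of carbon dioxide, fell (log2 fold change -0.96), as did CFBP1, the chloroplast fructose bisphosphatase, with a log2 fold change of -0.79. Rubisco activase, RCA, had 7608, 9712 and 12006 in WT and 9693, 10863 and 11582 in T34, with overlapping groups. TKL2, a transketolase, and the aldolase FBA1 were higher, with log2 fold changes of 1.74 and 1.18. Photorespiration genes AGT and GLYK, an aminotransferase of the peroxisome and the kinase that closes the cycle, fell (log2 fold changes -1.80 and -1.69), whereas the catalase gene CAT2 rose (log2 fold change 0.85).

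Transcripts made inside the chloroplast were lower as a class. Of 124 chloroplast-encoded genes tested 0 were higher and 104 lower in T34 (median -1.18). Chloroplast genes took 21.9% ± 0.749 (SD, n = 3) of the reads other than ribosomal RNA in T34 and 46.0% ± 6.75 in WT, without overlap. Of all reads they took 11.6% ± 0.888 and 21.4% ± 17.6, where WT replicate 2, at 1.68%, lies below T34. ATCG00630, a small subunit of photosystem I, had 17643, 51132 and 36408 normalized counts in WT replicates 1 to 3 and 5788, 4911 and 5264 in T34 replicates 1 to 3, and PsbN (ATCG00700) had 19898, 49718 and 41698 in WT and 7057, 6001 and 7568 in T34. Both were lower in every T34 library, with log2 fold changes of -2.59 ± 0.34 and -2.34 ± 0.34.

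Nuclear genes for the chloroplast's own ribosome followed the same direction. Of 27 ribosomal protein genes annotated as chloroplastic, 0 were higher and 23 lower (median -1.34), among them EMB3113 at a log2 fold change of -1.95 and RPS9 at a log2 fold change of -1.70. Of 11 annotated as mitochondrial none passed in either direction, though 4 were higher without WT replicate 2 (median 0.06, which turns negative with other scalings). Pentatricopeptide repeat proteins, which edit, cut and stabilise organelle transcripts, had 11 higher and 116 lower of 390. For those annotated as chloroplastic the count was 3 higher and 36 lower of 56 (median -0.69), with PGR3 at a log2 fold change of -1.62 and OTP84 at a log2 fold change of -1.37, and for those annotated as mitochondrial 5 higher and 23 lower of 123 (median -0.26), against 20.0% lower over all genes. The mitochondrial count of lower genes was 9 with the T34 and WT libraries alone, 12, 12 and 10 without T34 replicate 1, 2 or 3, and 14 without WT replicate 3. For the whole family it was 73 without T34 replicate 1 or 2, and higher genes numbered 7 and 5 without T34 replicate 2 or 3.

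Mitochondria-encoded genes and those of the cytosolic ribosome moved upward more often than downward. Of 141 mitochondria-encoded genes 62 were higher and 1 lower (median 0.53). Mitochondrial genes took 3.02% ± 0.0471 of the reads other than ribosomal RNA in T34 and 1.81% ± 0.417 in WT. Chloroplast genes took 21.9% of the same reads in T34 and 46.0% in WT. Shares of the same reads depend on each other, and the part of the chloroplast share in the mitochondrial difference was not tested. Summed normalized counts of the mitochondria-encoded genes were 250984 to 291061 in WT and 335543 to 350267 in T34. Without WT replicate 2, 96 of the mitochondria-encoded genes were higher. The count was 49, 44 and 48 without T34 replicate 1, 2 or 3, 51 with upper quartile scaling and 47 with scaling to the nuclear total. Of 187 genes of cytosolic ribosomal proteins 78 were higher and 7 lower (median 0.41), with 51 higher without T34 replicate 2 and 4, 4 and 3 lower without T34 replicate 1, 2 or 3. The motif TGGGCC or TGGGCT, called site II and searched on both strands, was in 50 of the 78 windows of the raised genes, in 5 of the 7 of the lowered genes and in 21.9% of all windows.

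**Figure D3:**
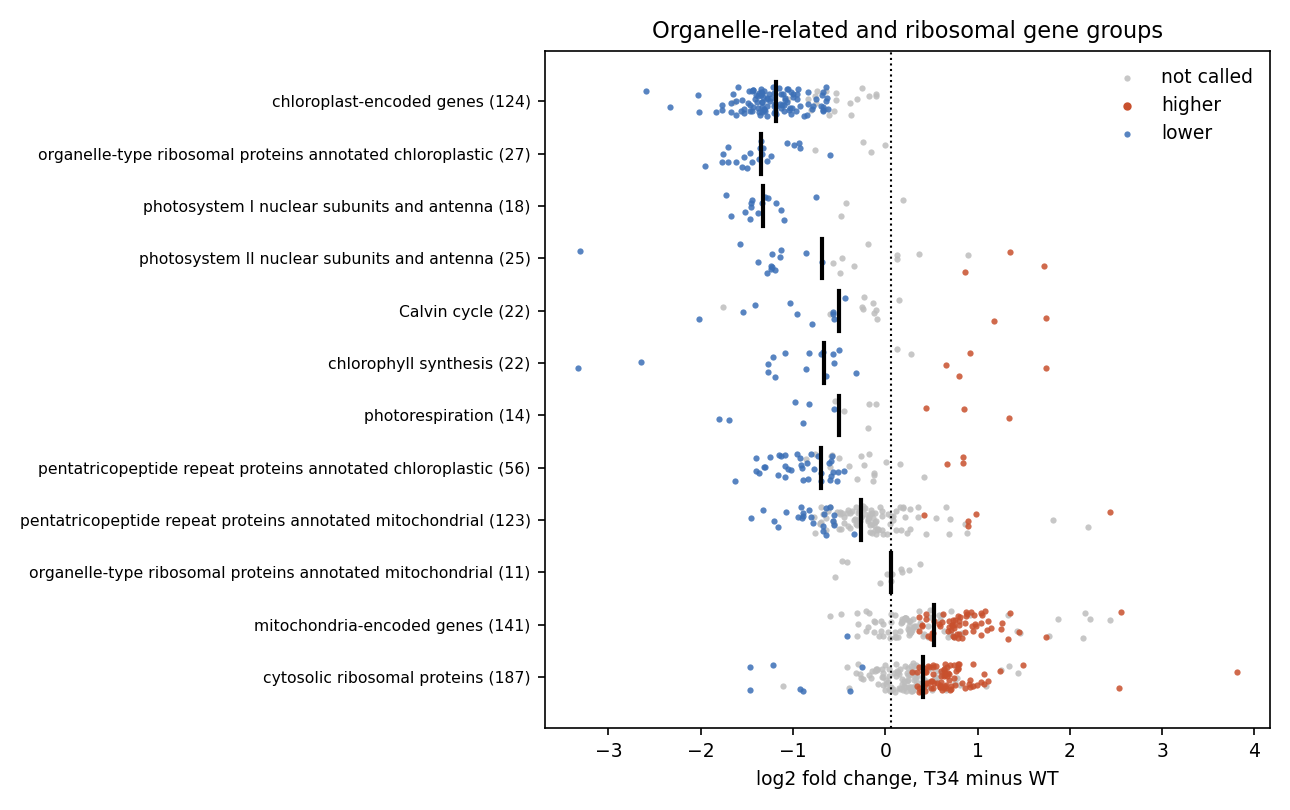
Log2 fold change of T34 minus WT for each tested gene of 12 groups (number tested in brackets), coloured by call, with a black bar at the group's median and a dotted line at the median of all genes tested, 0.062. Chloroplast-encoded genes and genes of the chloroplast ribosome lie almost wholly to the left, mitochondria-encoded and cytosolic ribosomal protein genes mostly to the right.

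Of 7 pollen and flower genes tested 0 were higher and 3 lower, namely SOC1, SVP and FUL, and the lower count was 5 with scaling to the nuclear total. SOC1, an integrator that promotes flowering, had 414, 327 and 533 normalized counts in WT replicates 1 to 3 and 39.5, 55.3 and 50.2 in T34 replicates 1 to 3, and SVP, a repressor of flowering, had 721, 748 and 942 in WT and 238, 282 and 332 in T34. T34 was lower in every library of both, with log2 fold changes of -3.09 ± 0.23 and -1.50 ± 0.18 (adjusted p = 1.34e-05 and 0.000203). Among shoot genes, STM, a homeodomain protein that keeps shoot meristem cells undifferentiated, had 31.9, 46.7 and 48.4 normalized counts in WT replicates 1 to 3 and 200.1, 220.4 and 204 in T34 replicates 1 to 3 (log2 fold change 2.29 ± 0.20, adjusted p = 2.93e-05). The boundary gene CUC1 had 3.07, 11.7 and 5.10 in WT and 36.4, 32.1 and 45.2 in T34, a log2 fold change of 2.50. Both were higher in every T34 library. CUC3, of the same family as CUC1, did not pass, at a log2 fold change of 0.46 (95% interval -0.48 to 1.40), and neither did KNAT1, a relative of STM.

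The stomatal genes GC1, FAMA and TMM were low, while SPCH, MUTE, EPF1 and EPF2 of the same list are not described here. GC1, which marks guard cells, had 89.1, 93.5 and 103 normalized counts in WT replicates 1 to 3 and 11.9, 11.95 and 20.1 in T34 replicates 1 to 3. FAMA, the factor of the last step of guard cell differentiation, had 84.8, 210.4 and 133 in WT and 37.2, 24.7 and 33.5 in T34, and the receptor-like gene TMM had 138, 152 and 179.7 in WT and 45.9, 59.0 and 48.6 in T34. T34 lay below WT in each library, with log2 fold changes of -2.66 ± 0.27, -2.05 ± 0.35 and -1.60 ± 0.20 (adjusted p = 6.95e-05, 0.00138 and 0.000214). The guard cell genes MYB60 and KAT1 had log2 fold changes of -1.16 and -0.70 without passing. The epidermal identity genes ATML1 and PDF2 fell (log2 fold changes -0.83 and -0.86), as did MYB16, of cuticle and epidermal cell shape, with a log2 fold change of -2.80, and YAB3, a gene of the lower leaf face, with a log2 fold change of -1.32. HIC, a wax synthesis gene that also affects stomatal number, and GL3, a bHLH factor of leaf hairs, rose (log2 fold changes 2.03 and 1.67). In all, 5 of 21 shoot and leaf genes were higher and 7 lower (median -0.70).

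Of 29 root-expressed genes 3 were higher and 8 lower (median -0.34), against 25.2% and 20.0% of all genes. Lower genes numbered 4 without WT replicate 1 or T34 replicate 1 and 5 without T34 replicate 3, and higher genes 5 without WT replicate 2. Those lower included TIP2-3, GL2, MYB68 and CASP genes of the endodermis, the inner cell layer whose Casparian strip seals the root. CASP1, a scaffold protein of the strip, had 367, 292 and 196 normalized counts in WT replicates 1 to 3 and 131, 140.4 and 131 in T34 replicates 1 to 3. CASP5 had 112, 58.4 and 70.1 in WT and 12.7, 23.9 and 26.8 in T34. All T34 libraries were below all WT libraries, with log2 fold changes of -1.03 ± 0.24 and -1.89 ± 0.35 (adjusted p = 0.00676 and 0.00208). CASP2 and CASP4 were lower (log2 fold changes -1.25 and -1.08), calls that were lost without WT replicate 1 or T34 replicate 1. MYB36, the regulator of the CASP genes, did not pass, at a log2 fold change of -0.34 (95% interval -1.08 to 0.40), and neither did the root meristem genes PLT1, PLT2, SCR, SHR and WOX5. PHT1;1, a phosphate transporter, and TTG2, a WRKY factor of epidermal patterning, rose (log2 fold changes 1.47 and 1.32).

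Of 20 vascular genes 8 were higher and 1 lower (median 0.25), but 4 were higher without T34 replicate 1 or 2 and 5 with upper quartile or nuclear total scaling. The phloem genes SEOR1, a sieve element protein, and APL, a regulator of phloem identity, rose (log2 fold changes 0.93 and 0.75), as did the HD-ZIP factors PHB and PHV (log2 fold changes 0.85 and 0.44). Xylem genes XCP2 and CESA4 had log2 fold changes of -0.18 and -0.01 and did not pass. Of 23 seed and embryo genes 15 were higher and 0 lower (median 3.75), but libraries within a group differed widely, and the count was 7 without T34 replicate 2, 8 without T34 replicate 3 and 9 without WT replicate 3. The cruciferin gene CRC, for a storage protein, had 653, 3226 and 10.2 in WT and 4528, 12356 and 7984 in T34, a call lost without any of the T34 libraries or without WT replicate 1. EM6 and PER1, late embryo genes, were steadier, with 7.98, 35.1 and 5.10 in WT and 194, 308 and 175 in T34 and 55.3, 129 and 17.8 in WT and 889, 1304 and 1207 in T34. T34 replicate 2 was the highest T34 library for each of the 15 genes called.

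**Figure D4:**
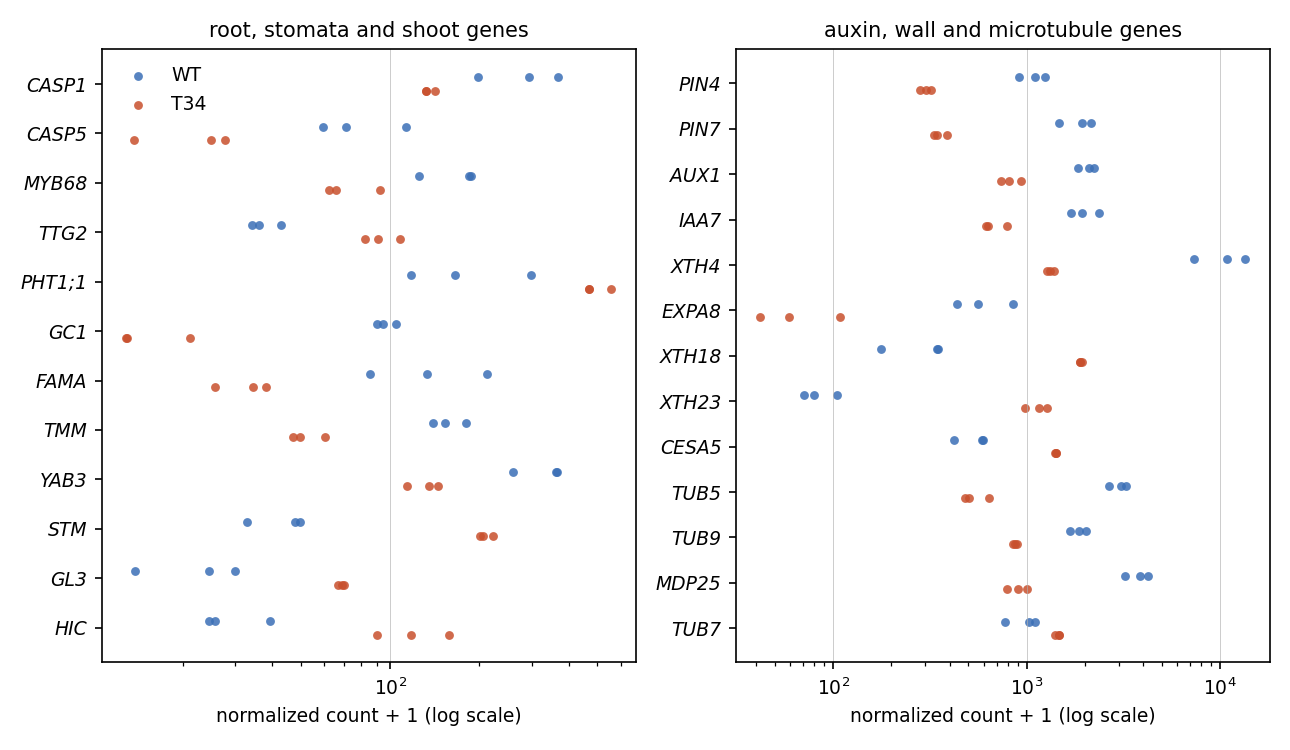
Normalized count + 1 on a log axis for each library of WT and T34 (3 points per group and gene), for genes of root, stomata and shoot on the left and of auxin, wall and microtubules on the right. CASP1, CASP5, GC1, FAMA, TMM, PIN7, XTH4 and TUB5 lie lower in all 3 T34 libraries, and STM, PHT1;1, XTH18 and XTH23 lie higher.

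Of 24 genes of S phase and DNA replication 8 were higher and 0 lower (median 0.44), and of 31 of G2 and M phase 7 were higher and 1 lower (median 0.22), against 25.2% higher and 20.0% lower over all genes. The S phase count was 4 without T34 replicate 1 or 3, 5 with upper quartile or nuclear total scaling and 13 without WT replicate 2. TSO2, a ribonucleotide reductase subunit that supplies DNA precursors, had 333, 362 and 350.5 normalized counts in WT replicates 1 to 3 and 595, 613 and 794 in T34 replicates 1 to 3. PCNA1, the sliding clamp of DNA polymerase, had 84.8, 58.4 and 65.0 in WT and 123, 133 and 147 in T34. T34 was higher in every library of both, with log2 fold changes of 0.92 ± 0.17 and 0.96 ± 0.18 (adjusted p = 0.00209 and 0.00228), and so was MCM6, of the replicative helicase, with a log2 fold change of 0.69. The rises of MCM3, MCM4 and PCNA2 were lost with upper quartile scaling and with scaling to the nuclear total. An E2F site, TTTCCCGC or TTTGGCGC on either strand, was in 3 of the 8 windows of the raised S phase genes and in 0.964% of all windows.

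Among mitotic genes TES, a kinesin of cell plate formation, had 75.5, 117 and 52.3 normalized counts in WT replicates 1 to 3 and 229, 196 and 214 in T34 replicates 1 to 3, a log2 fold change of 1.45 ± 0.25 (adjusted p = 0.00139). The related kinesin gene HINKEL rose (log2 fold change 0.66), as did the anaphase activator CDC20.1 (log2 fold change 0.87) and the kinase genes CDKB1;1 and CDKB2;2 (log2 fold changes 0.94 and 0.65). TPX2, of spindle assembly, had 278, 467 and 199 in WT and 278, 278 and 316 in T34, with overlapping groups, and KNOLLE, the syntaxin of cytokinesis, had 0.13 (95% interval -0.24 to 0.50) on the log2 scale. CYCB1;1, a cyclin of G2 and a marker of DNA damage, rose (log2 fold change 0.59), a call lost with both of these scalings and without WT replicate 3, T34 replicate 1 or T34 replicate 3.

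Inhibitors of cyclin-dependent kinases and endocycle genes moved both ways, 3 higher and 2 lower of 16. These shares, 18.75% and 12.5%, are below those of all genes, 25.2% and 20.0%. KRP4 had 462, 678 and 516 normalized counts in WT replicates 1 to 3 and 176, 182 and 178 in T34 replicates 1 to 3, and SMR6 had 18.4, 23.4 and 11.5 in WT and 79.9, 76.9 and 86.2 in T34. The first was the lower and the second the higher in each T34 library, with log2 fold changes of -1.60 ± 0.15 and 2.18 ± 0.28. KRP6 rose (log2 fold change 1.37), while SMR7, a damage-induced member, had 7.98, 23.4 and 10.2 in WT and 7.91, 14.2 and 10.9 in T34 and did not pass. Of 23 DNA damage genes 7 were higher (30.4%) and 5 lower (21.7%), against 25.2% and 20.0% of all genes. The median was 0.39, or 0.15 without WT replicate 2. The counts were 3 and 3 without T34 replicate 2, with 3 higher without T34 replicate 3 and 3 lower without T34 replicate 1. GMI1, an early damage-induced gene of recombination, had 216, 234 and 237 normalized counts in WT replicates 1 to 3 and 846, 735 and 754 in T34 replicates 1 to 3 (log2 fold change 1.76 ± 0.16, adjusted p = 3.68e-05), and PARP2 rose (log2 fold change 0.94). Genes of end joining fell slightly, KU80 (log2 fold change -0.49), LIG4 (log2 fold change -0.49) and RAD50 (log2 fold change -0.51). SOG1, the central regulator, did not pass, at a log2 fold change of -0.35 (95% interval -0.74 to 0.04).

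Of 20 genes of the gamma-tubulin complex, which holds GIP1 and GIP2, and of augmin 0 were higher and 5 lower (median -0.14), against 20.0% lower over all genes. The count was 3 without T34 replicate 1, T34 replicate 2 or WT replicate 3 and 8 with either other scaling. The gamma-tubulin genes themselves did not pass, TUBG1 with 173, 129 and 184 in WT and 177, 194 and 178 in T34 and TUBG2 with 197, 187 and 163 in WT and 219.8, 192 and 184 in T34. The core complex genes GCP2, GCP3 and GCP4 had log2 fold changes of -0.18 (95% interval -0.40 to 0.04), -0.50 (95% interval -0.92 to -0.08) and 0.11 (95% interval -0.15 to 0.36). AUG8, a microtubule end protein of the augmin complex, had 354, 351 and 449 normalized counts in WT replicates 1 to 3 and 135, 143 and 141 in T34 replicates 1 to 3 (log2 fold change -1.44 ± 0.15, adjusted p = 7.5e-05). It was lower in each T34 library, and AUG3 and AUG6, which recruit the nucleating complex to microtubules, fell (log2 fold changes -0.54 and -0.50). GCP6 and NEDD1 were lower (log2 fold changes -0.28 and -0.31), calls lost without T34 replicate 1 or 2 or without WT replicate 3.

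Tubulin genes were uneven. Of 28 tubulin and microtubule-associated genes 3 were higher and 11 lower (median -0.09), and 5 were higher without WT replicate 2. TUB5, a beta-tubulin, had 2666, 3062 and 3267 normalized counts in WT replicates 1 to 3 and 481, 501 and 639.7 in T34 replicates 1 to 3. MDP25, a protein that destabilises microtubules, had 3226, 3845 and 4225 in WT and 788, 900.2 and 1006 in T34, and TUB9 had 1862, 1671 and 2030.3 in WT and 875, 852 and 888 in T34. T34 libraries were lower throughout, with log2 fold changes of -2.48 ± 0.13, -2.06 ± 0.15 and -1.08 ± 0.10 (adjusted p = 2.46e-06, 1.17e-05 and 2.93e-05). TUA3, TUA5, TUB4, TUB6 and TUB8 fell (log2 fold changes -1.30, -1.31, -0.92, -1.01 and -1.12). TUB7 rose (log2 fold change 0.59), and the rises of TUA2 and TUB3 were lost with upper quartile scaling and with scaling to the nuclear total. MOR1, EB1A and CLASP, proteins of microtubule growth, had log2 fold changes of 0.03, -0.01 and -0.02 and did not pass, whereas MAP65-1, a microtubule bundler, fell (log2 fold change -0.63).

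At the nuclear envelope and the centromere few genes differed, 1 higher and 1 lower of 19 and 1 higher and 1 lower of 18. With nuclear total scaling 4 were lower in each, and without WT replicate 2 the envelope list had 4 higher. NEAP2, an inner envelope protein, had 130.2, 152 and 126 normalized counts in WT replicates 1 to 3 and 351, 350.4 and 306 in T34 replicates 1 to 3 (log2 fold change 1.30 ± 0.11, adjusted p = 2.85e-05), and WIP3, an outer envelope protein, had 309, 339 and 298 in WT and 162, 169.6 and 178 in T34. The first was higher and the second lower in every T34 library. SUN1 and SUN2, which bridge the envelope, had log2 fold changes of -0.11 (95% interval -0.41 to 0.19) and 0.09 (95% interval -0.44 to 0.63). The centromeric histone gene HTR12 had 39.3, 35.1 and 17.8 in WT and 42.7, 45.6 and 44.4 in T34 without passing. Of the cohesin and separase genes, SMC3 fell (log2 fold change -0.71) and ESP1 rose (log2 fold change 0.69).

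Of 21 core and linker histone genes 7 were higher and 5 lower, and the sign of the median changed with the scaling. Both counts were 3 without T34 replicate 1, lower genes numbered 3 without T34 replicate 2, T34 replicate 3 or WT replicate 3 and 9 without WT replicate 2, and higher genes 4 with either other scaling. All 3 linker histone genes fell. H1.3, the stress-inducible one, had 1677, 1729.7 and 1852 normalized counts in WT replicates 1 to 3 and 418, 507 and 384 in T34 replicates 1 to 3, and H1.2 had 1908, 1706 and 2012 in WT and 642, 626 and 677 in T34, both lower in all T34 libraries, and H1.1 fell (log2 fold change -0.87). The core histone gene HTB2 rose (log2 fold change 0.99). Genes of silencing and DNA methylation were 13 higher and 2 lower of 24 (median 0.35), but 8 were higher with upper quartile scaling and 7 with nuclear total scaling. AGO2, a slicer of small RNA pathways in defence, had 122, 129 and 105 normalized counts in WT replicates 1 to 3 and 397, 495 and 575 in T34 replicates 1 to 3 (log2 fold change 2.03 ± 0.22, adjusted p = 9.62e-05). CMT3, VIM1 and DDM1, of methylation maintenance, rose (log2 fold changes 0.77, 0.87 and 0.58), while ROS1, a demethylase, fell (log2 fold change -0.72). Of 19 transposon-annotated genes 5 were higher and 2 lower, with 2 higher when any T34 library was left out and 3 without WT replicate 1 or with either other scaling.

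Auxin genes were more often lower, 15 of 28 against 6 higher (median -0.54), and 3 were higher without WT replicate 3 or T34 replicate 2. PIN7, an efflux carrier, had 1462, 2150.5 and 1932 normalized counts in WT replicates 1 to 3 and 344, 329 and 386 in T34 replicates 1 to 3. PIN4 had 909.6, 1099 and 1249 in WT and 279, 321 and 302 in T34, and the influx carrier AUX1 had 1839, 2104 and 2218 in WT and 814, 739 and 933 in T34. All T34 libraries lay below all WT libraries, with log2 fold changes of -2.37 ± 0.18, -1.84 ± 0.13 and -1.31 ± 0.11 (adjusted p = 1.32e-05, 8.29e-06 and 2.64e-05). PIN3 fell (log2 fold change -0.96), while PIN2, of the root tip, did not pass. Of the early response repressors, IAA29 had 346, 538 and 551 in WT and 46.7, 20.2 and 17.6 in T34, a log2 fold change of -4.14, and IAA7 and IAA3 fell (log2 fold changes -1.55 and -1.81). The conjugating enzyme gene GH3.3 had 135, 175 and 152 in WT and 1287, 716 and 291 in T34, a rise that was not called without T34 replicate 1, T34 replicate 2, WT replicate 1 or WT replicate 3.

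Cytokinin genes were 3 higher and 0 lower of 19, or 5 higher without T34 replicate 3. LOG5, an activating enzyme, and the response regulator ARR5 rose (log2 fold changes 1.93 and 1.00), and CKX1, a cytokinin oxidase, had 5.53, 0 and 12.7 in WT and 55.4, 50.8 and 40.2 in T34. The other 8 response regulators tested did not pass.

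Wall and growth genes split by member, 8 higher and 12 lower of 26, with the lower count at 6 without T34 replicate 2 and at 7 without T34 replicate 3 or WT replicate 3. XTH4, which remodels xyloglucan in elongating cells, had 7367, 13534 and 10809 normalized counts in WT replicates 1 to 3 and 1315, 1269 and 1392 in T34 replicates 1 to 3. EXPA8, an expansin, had 435, 853 and 562 in WT and 41.1, 58.3 and 107 in T34. T34 was lower in each library, with log2 fold changes of -2.95 ± 0.27 and -3.20 ± 0.37. XTH18 had 346, 175 and 344 in WT and 1888, 1879.6 and 1935 in T34, XTH23 had 78.6, 70.1 and 103 in WT and 983, 1152 and 1274 in T34 and the cellulose synthase gene CESA5 had 596, 421 and 586 in WT and 1423, 1404 and 1420.1 in T34. These were higher in every T34 library, with log2 fold changes of 2.78 ± 0.24, 3.75 ± 0.20 and 1.42 ± 0.13 (adjusted p = 2.78e-05, 2.76e-06 and 3.89e-05). CESA1 and CESA3, of the primary wall, were lower (log2 fold changes -0.32 and -0.33), calls lost without any of the T34 libraries, and CESA6 did not pass.

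**Figure D5:**
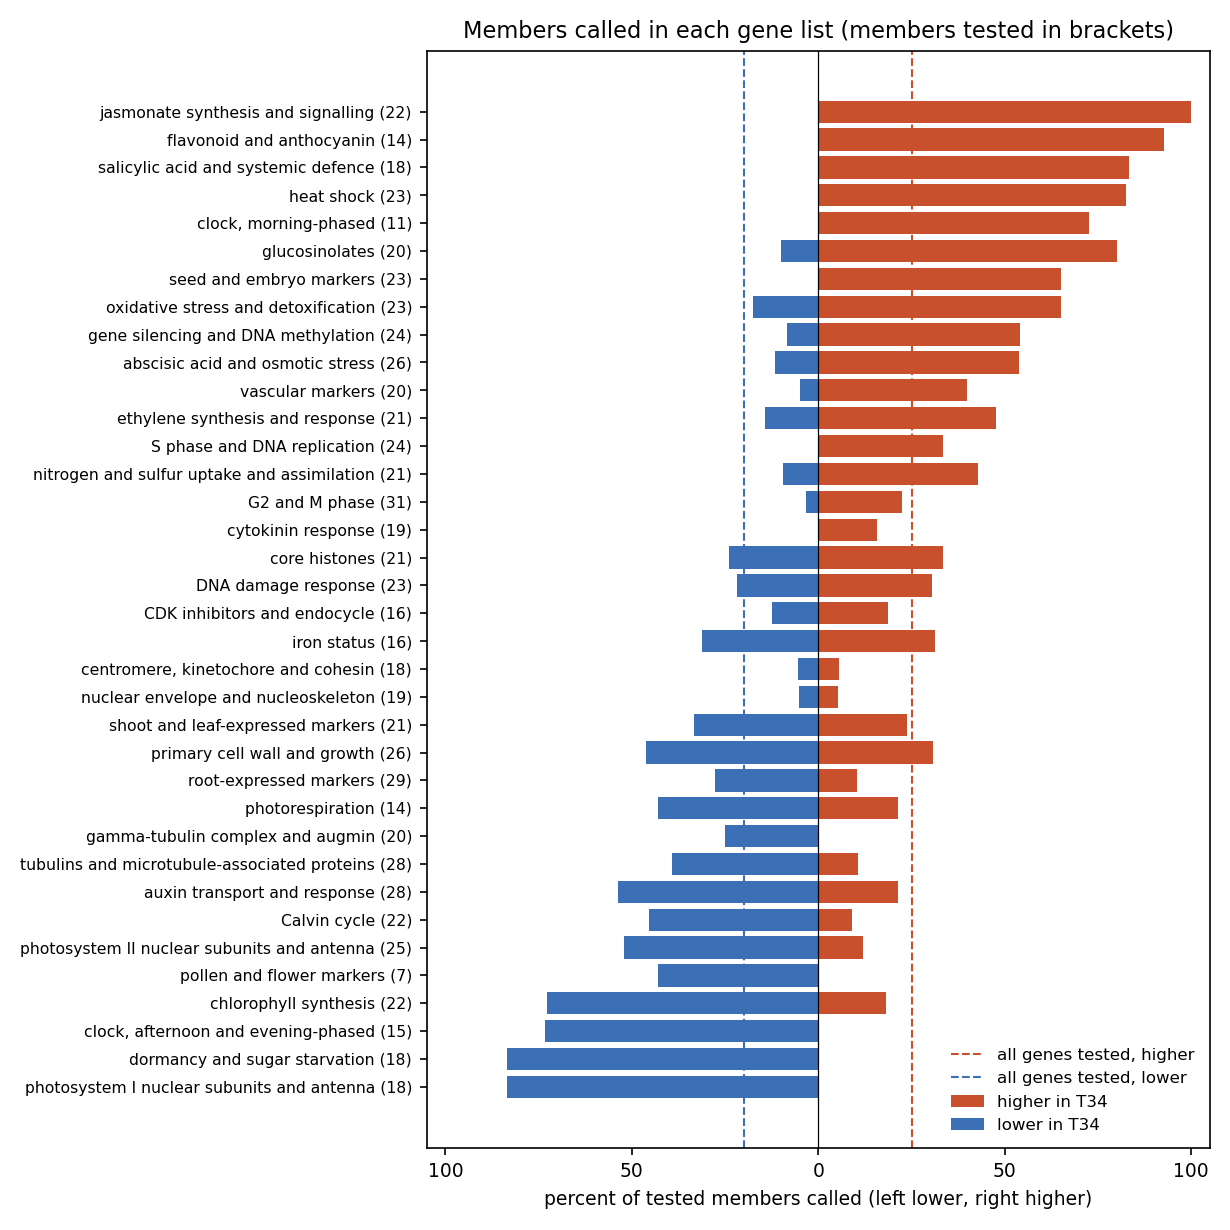
Percent of the tested members of each of 36 gene lists called higher (right) and lower (left) in T34, with the number tested in brackets, sorted by the difference, and dashed lines at the shares of all genes, 25.2% and 20.0%. Jasmonate, flavonoid, salicylic acid and heat shock lists stand at one end and photosystem I, dormancy and evening clock lists at the other.

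Jasmonate, the hormone of wounding and insect attack, acts by removing JAZ repressors from transcription factors, and the JAZ genes are themselves targets. All 22 jasmonate genes tested were higher in T34 (median 4.64). JAZ2 had 232, 199 and 223 normalized counts in WT replicates 1 to 3 and 3234, 3069 and 2763 in T34 replicates 1 to 3, the gene with the smallest spread of the list, a log2 fold change of 3.79 ± 0.10 (adjusted p = 3.87e-07). JAZ10 had 21.5, 129 and 20.4 in WT and 3385, 2624 and 2103 in T34, and the synthesis gene LOX3 had 22.1, 292 and 40.8 in WT and 7896, 6861 and 5950.0 in T34. For both the highest WT library was the shallow replicate 2, still far below T34. The catabolic genes CYP94B3 and CYP94C1, which oxidise the active hormone, rose (log2 fold changes 5.54 and 4.86). The G-box was in 4 of the 22 windows, those of AOS, JAZ2, JAZ7 and JAZ8.

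Of 18 salicylic acid genes 15 were higher and 0 lower (median 2.50). PR1, a secreted marker of systemic defence, had 0.614, 0 and 0 normalized counts in WT replicates 1 to 3 and 191, 235 and 177 in T34 replicates 1 to 3, with WT at or near 0 and every T34 library well above. SARD1 and CBP60G, the factors that switch on synthesis, had 9.83, 35.1 and 8.92 in WT and 259, 426 and 618 in T34 and 33.2, 70.1 and 21.7 in WT and 195, 383 and 502 in T34. Their log2 fold changes were 7.42 ± 0.88, 4.70 ± 0.54 and 3.14 ± 0.56 (adjusted p = 0.000166, 0.000132 and 0.00162). The receptor gene NPR1 did not pass, at a log2 fold change of 0.25 (95% interval -0.05 to 0.56), while NPR3, a related receptor, rose (log2 fold change 2.44).

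Receptors and transcription factors known from defence moved in both directions. WRKY factors were 28 higher and 6 lower of 58 (2 lower without T34 replicate 3), with WRKY40 at a log2 fold change of 5.62 and WRKY3 at a log2 fold change of -1.60. Cysteine-rich receptor-like kinases were 18 higher and 2 lower of 34, with CRK6 at a log2 fold change of 5.23. With the filter at 50 normalized counts, where fewer genes are tested, 12 of them were higher and 0 lower. NLR immune receptors went both ways, 42 higher and 26 lower of 100. AT4G19510 had 14.7, 35.1 and 17.8 normalized counts in WT replicates 1 to 3 and 902, 994 and 982 in T34 replicates 1 to 3, and AT1G63880 had 177, 304 and 275 in WT and 0, 2.24 and 1.67 in T34. The first was up and the second down in every T34 library, with log2 fold changes of 5.44 ± 0.26 and -6.91 ± 0.48. RPP1, which recognises downy mildew, rose (log2 fold change 3.07 ± 0.10), as did PEPR1, the receptor of a damage peptide, with a log2 fold change of 2.88 ± 0.11. Reads were mapped to TAIR10, and the part of sequence differences between the accessions in the counts of NLR genes was not tested.

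Heat shock genes were 19 higher and 0 lower of 23 (median 2.96). The median was 1.93 with 5 in place of 1 added to the counts. With the filter at 50 normalized counts, where fewer genes are tested, 13 were higher. HSFA2, the factor that extends the response, had 7.37, 46.7 and 12.7 normalized counts in WT replicates 1 to 3 and 248, 552 and 1486 in T34 replicates 1 to 3, and HSP101, which frees aggregated proteins, had 111, 467 and 117 in WT and 1704, 3817 and 7908 in T34. HSFB1, a repressor-type factor, had 138, 105 and 105 in WT and 974, 1014 and 945 in T34. All T34 libraries were above all WT libraries, with log2 fold changes of 5.06 ± 0.83, 4.34 ± 0.68 and 3.08 ± 0.12 (adjusted p = 0.00106, 0.000838 and 7.51e-07). The heat shock element GAANNTTC was in 5 of 19 windows of the raised genes and in 9.32% of all windows. Oxidative stress genes were 15 higher and 4 lower of 23. RBOHD, the oxidase that makes signalling superoxide, had 244, 503 and 171 in WT and 4929.5, 5509 and 5861 in T34, and the zinc finger gene ZAT10 had 45.4, 140.2 and 52.3 in WT and 911, 1587 and 2536 in T34. CAT1, a catalase, and the detoxifying GSTU25 fell (log2 fold changes -1.80 and -1.48).

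Flavonoid genes were 13 higher and 0 lower of 14 (median 3.50). The median was 2.65 with 5 in place of 1 added to the counts, and 10 were higher with the filter at 50 normalized counts. GSTF12, needed to carry anthocyanins into the vacuole, had 0.614, 0 and 0 normalized counts in WT replicates 1 to 3 and 149, 123 and 155 in T34 replicates 1 to 3, and DFR, of the anthocyanin branch, had 1.84, 23.4 and 2.55 in WT and 329, 236 and 381 in T34. WT was at or near 0 apart from DFR in WT replicate 2, and every T34 library was far above. The log2 fold changes were 6.92 ± 0.42 and 5.63 ± 0.78. Glucosinolate genes were 16 higher and 2 lower of 20. CYP79B2, of the indolic branch, had 756, 865 and 545 in WT and 4819, 4761 and 4078 in T34 and SOT17, a final sulfotransferase, had 86.6, 58.4 and 59.9 in WT and 633, 513 and 445 in T34. The myrosinase genes TGG1 and TGG2, of glucosinolate breakdown, fell (log2 fold changes -1.21 and -2.35).

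Of 26 abscisic acid and osmotic stress genes 14 were higher and 3 lower (median 1.502). NCED3, the rate-limiting enzyme of abscisic acid synthesis, had 339, 210.4 and 321 normalized counts in WT replicates 1 to 3 and 2056, 2280.1 and 2012 in T34 replicates 1 to 3, and CYP707A3, which breaks it down, had 31.9, 70.1 and 26.8 in WT and 580.4, 809.8 and 1578 in T34. HAI1, a phosphatase induced by the hormone, had 87.2, 105 and 84.1 in WT and 1450.2, 1469 and 1003 in T34. These 3 were higher in every T34 library, with log2 fold changes of 2.89 ± 0.41, 4.49 ± 0.61 and 3.80 ± 0.32 (adjusted p = 0.000472, 0.000356 and 2.27e-05). The cold-regulated genes went the other way. COR15B, a protector of chloroplast membranes, had 795, 923 and 1448 in WT and 21.4, 20.2 and 15.1 in T34, a log2 fold change of -5.70 ± 0.41, and COR15A and COR47 fell (log2 fold changes -3.16 and -1.54). The cold factor genes CBF1 and CBF3 had overlapping values and did not pass, and neither did RD29A, with 2260.2, 3985 and 3586 in WT and 3334, 1653 and 711 in T34.

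Of 21 ethylene genes 10 were higher and 3 lower, or 5 lower with either other scaling. ACS6, a synthesis gene activated by stress kinases, had 100.1, 187 and 107 normalized counts in WT replicates 1 to 3 and 892, 1975 and 3214 in T34 replicates 1 to 3, and ERF1, an integrator of ethylene and jasmonate, had 4.30, 0 and 1.27 in WT and 49.0, 53.8 and 85.4 in T34. T34 was higher in each library, with log2 fold changes of 3.81 ± 0.62 and 4.75 ± 0.60. The receptor gene ERS2 fell (log2 fold change -1.09). Of 78 ERF factors 38 were higher and 5 lower (3 lower without T34 replicate 3), with ERF13 at a log2 fold change of 5.86 and AT5G61590 at a log2 fold change of -4.76.

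Nutrient genes differed by nutrient. Of 21 nitrogen and sulfur genes 9 were higher and 2 lower, and of 16 iron genes 5 and 5, with 3 iron genes higher without T34 replicate 2 or 3. Sulfate reduction rose, with APS1, its first enzyme, at 679, 631 and 577 normalized counts in WT replicates 1 to 3 and 6063, 5098 and 4388 in T34 replicates 1 to 3 (log2 fold change 3.03 ± 0.14, adjusted p = 1.8e-06) and APR1 at 203, 316 and 159 in WT and 1817, 1735 and 2058 in T34. T34 was above WT in every library of both. In iron uptake, the transporter IRT1 had 76.8, 46.7 and 43.3 normalized counts in WT replicates 1 to 3 and 2.37, 5.23 and 0 in T34 replicates 1 to 3 and its regulator FIT had 92.1, 117 and 65.0 in WT and 11.9, 7.47 and 18.4 in T34. These were lower in each T34 library, with log2 fold changes of -4.31 ± 0.78 and -2.81 ± 0.41 (adjusted p = 0.00179 and 0.000543). The storage protein genes FER1 and FER3 rose (log2 fold changes 1.75 and 0.98), and so did IMA1, a peptide that promotes iron uptake, with a log2 fold change of 2.93. FRO2, the root iron reductase, had 59.0, 58.4 and 19.1 in WT and 45.1, 34.4 and 28.5 in T34 and did not pass. NIA1, a nitrate reductase, fell (log2 fold change -1.10) and its partner NIA2 did not pass, at a log2 fold change of 0.12 (95% interval -0.40 to 0.65).

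Other families held genes of both directions, to be read against 25.2% higher and 20.0% lower over all genes. The bHLH factors stood at 27.4% each way. NAC factors were 27 higher and 9 lower of 69, MYB factors 33 and 11 of 89, bHLH factors 29 and 29 of 106, cytochromes P450 72 and 23 of 169, UDP-glycosyltransferases 14 and 7 of 35 and class III peroxidases 26 and 12 of 60. The lower counts were 14 for NAC without WT replicate 2, 6 and 7 for MYB without T34 replicate 2 or 3, and 3, 4 and 4 for glycosyltransferases without T34 replicate 1, T34 replicate 3 or WT replicate 3. HBI1, a bHLH factor that promotes cell elongation, had 1069, 1180.4 and 1579 normalized counts in WT replicates 1 to 3 and 103, 84.4 and 102 in T34 replicates 1 to 3, and MYB15, of lignin in immunity, had 11.1, 23.4 and 7.65 in WT and 909, 1166 and 1336 in T34. They were the lower and the higher in every T34 library, with log2 fold changes of -3.70 ± 0.19 and 6.36 ± 0.34. Proteasome subunits were 9 higher and 1 lower of 49, below the share of all genes, with 5 and 4 higher without T34 replicate 1 or 2 and 4 with nuclear total scaling.

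The rises that added the most normalized counts were those of BGLU18, a beta-glucosidase of endoplasmic reticulum bodies, from 651, 1601 and 832 in WT to 40853, 36539 and 36435 in T34, of ADC2, for polyamine synthesis, from 2922, 3296 and 2456 to 27224, 23799 and 22161, and of NIT1, a nitrilase, from 2929, 3097 and 3894 to 23611, 20990.5 and 22574. WT and T34 did not overlap for any of them, with log2 fold changes of 5.31 ± 0.29, 3.08 ± 0.20 and 2.77 ± 0.14. Of the 15 largest rises, JAL23, a jacalin-related lectin, had 4.91, 46.7 and 5.10 in WT and 2761, 2034 and 1719.9 in T34, RLP24, a receptor-like protein, had 1.84, 0 and 3.82 in WT and 591, 365 and 162 in T34, and the leucine-rich repeat gene AT3G43740 had 2.46, 0 and 1.27 in WT and 218, 206 and 203 in T34. WT was near 0 for these, apart from JAL23 in WT replicate 2.

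In a few genes 1 group had no read at all while each library of the other had at least 30 normalized counts. In WT these were AT4G37710, with a VQ motif, at least 83.7-fold higher in T34, AT4G16240, at least 65.2-fold, LCR85, a cysteine-rich peptide, at least 50.2-fold, and AT3G18535, a tubulin-tyrosine ligase, at least 28.2-fold, each against a floor of 3 reads over the group. In T34 the one such gene was the NLR gene AT1G58400, at least 77.8-fold lower, which had 71.2, 46.7 and 66.3 normalized counts in WT and no read in any T12 library either. Whether the mutants carry an allele that is missing or differs from the reference was not tested for any of these genes.

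T34 libraries differed among themselves in some of these groups. Among the 5262 genes called higher, the highest T34 library was replicate 1 for 2119, replicate 2 for 1389 and replicate 3 for 1754, and the median ratio of the highest to the lowest library was 1.23. Of the 19 raised heat shock genes 14 were highest in replicate 3 (median ratio 2.096), and of the 10 raised ethylene genes 9 were. Of 22 jasmonate genes 15 were highest in replicate 1, and so were 13 of 16 glucosinolate genes. NLR genes were highest in replicate 3 for 27 of 42. Groups did not overlap for HSFA2, HSP101 and ACS6 in spite of this spread.

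T34 and T12 were compared directly, in the same fit, since their comparisons with WT share the WT libraries. Of 20871 genes 179 were higher (0.858%) and 318 lower (1.52%) in T34 than in T12. These counts hang on the libraries used. Without T34 replicate 1 they were 3 and 12, without T34 replicate 2 they were 2 and 12, and without T34 replicate 3 they were 39 and 102. Leaving out T12 replicate 1, 2 or 3 gave 9 and 15, 5 and 17, and 34 and 83. Without WT replicate 2, which enters through the shared spread, they were 898 and 1000. Ribosomal RNA took 0.978% to 1.79% of the T12 reads, against 45.0% to 49.5% in T34, and its part in these differences was not tested. Chloroplast functions took a large part of the lower genes, with 48 of 124 chloroplast-encoded genes, 10 of 18 photosystem I genes, 13 of 22 Calvin cycle genes and 10 of 14 photorespiration genes lower in T34, and 0 higher in each.

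RBCS2B, a Rubisco small subunit, had 6187, 4685 and 5979 normalized counts in T12 replicates 1 to 3 and 1813, 1727 and 2051 in T34, a difference of -1.58 on the log2 scale (adjusted p = 0.00759). STM had 51.9, 60.9 and 44.9 in T12, with a T34 minus T12 difference of 1.98 (adjusted p = 0.00556). XTH17 had 255, 279.6 and 199.6 in T12 and 65.6, 70.2 and 76.2 in T34, a difference of -1.77. In each of these genes the T34 and T12 libraries did not overlap. RLP24 and PR5 were higher in T34 than in T12 (log2 fold changes 3.39 and 2.92), and IAA29 was lower (log2 fold change -2.95). No morning or evening clock gene passed this test, and LHY had 3192, 3075 and 3058 in T12 beside 3152, 3262 and 3272 in T34.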

How the data were processed

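Total RNA of whole seedlings was sequenced as stranded libraries after removal of ribosomal RNA, per the labels' protocols. Per the submitters' processing notes, cutadapt 1.8.1, HISAT2 2.1.0, featureCounts 1.6.2, DESeq2 1.22.2 and TAIR10 were used. The authors deposited 1 normalized count per gene and library, a signal that is the count divided by a size factor, beside fold changes and p-values that are not used here. Every value came out as a whole number of reads within a tolerance of 0.01 (100% of values), which gave the depths. T34 columns JBB.4 to JBB.6 and WT columns JBB.7 to JBB.9 were compared. JBB.6 was taken as T34 because it occurs only in the deposited comparison of T34 with WT. JBB.7 was taken as WT because the comparison of T12 with WT holds it as well. A description in the labels names JBB7 under both groups and JBB6 under none, and leaving out either library was among the alternatives.

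limma 3.58.1 (R 4.3.3) was run with its trend option on log2(normalized count + 1) over all 9 libraries for genes with a value of at least 10 in at least 3 libraries, without a replicate block, and p-values were adjusted by Benjamini-Hochberg over the 20871 genes tested. Fold changes on this scale understate the change of low genes. The design planned edgeR for raw counts only, so edgeR 4.0.16 and DESeq2 1.42.0 on the recovered reads were alternatives, with other pseudocounts, filters, scalings, library weights and leave-outs of each library. The fit was also run on simulated data, with the same spread set for every gene and far fewer changed genes than were called here. That setting differs from these data, so the run does not vouch for the calls. Of 781 members of 36 lists 774 were in the table and 742 tested. Members and lists were chosen with earlier results of these data known. The rule for named genes took the 15 largest rises and falls, the 10 with the largest test statistic and the 10 largest gains and losses each way, and up to 4 members each way per list, and other members named were chosen after their values were seen. Promoter windows are the 250 bases before the annotated start in TAIR10.1, to which 29991 of 30271 loci matched.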

Additional observations from a re-analysis of the deposited data

How the results depend on the processing

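Counts of genes that differed between T34 and WT stayed within 1.5 times the values given, at 4177 to 6174 higher and 3164 to 5153 lower with 1 library left out, and at 4453 to 6539 and 3498 to 5451 under the other settings. Genes higher made up 55.8% of calls as given, 46.5% with upper quartile scaling and 45.6% with scaling to the nuclear total. Of 599 list members and named genes called, 484 were called under every setting that tested them, 115 lost the call under at least 1, and 0 changed sign. With the filter at 50 normalized counts 16716 genes were tested, and some of the called genes were not among them. Median fold changes of the core histone, nuclear envelope, centromere, iron, mitochondrial ribosomal protein, bHLH, proteasome and transposon lists lay near 0 and changed sign between settings. The T34 against T12 counts, 179 higher and 318 lower, ranged from 2 to 898 and from 12 to 1000 with 1 library left out. They were 3193 and 3104 with library weights, 615 and 753 with edgeR, 690 and 918 with DESeq2, and 115 higher genes were left without a filter, where 30271 genes are tested. The cause of the other shifts was not tested. WT replicate 2 limits low genes, since 1 read there equals 11.7 normalized counts. No paired analysis was possible because the replicate numbers come from the order of column names and mark no shared animal, plate, batch or day.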
